A study of Brassica rapa subsp. pekinensis with 6 samples.

Results

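In flower buds of Chinese cabbage (Brassica rapa subsp. pekinensis), 92 of the 41019 genes with a Bra identifier formed a class of abundant genes that stood moderately higher in male sterile than in fertile plants. The genes were chosen by their measured levels in raw CPM, which are counts scaled to a library total of 1000000 with no further adjustment. A gene belonged to the class when its mean over the sterile libraries was at least 50 raw CPM and was at least 2.5 and less than 8 times the fertile mean. The same libraries gave both means, so levels, ratios and calls of sterile against fertile buds describe how these genes were chosen and are no test of a difference. The count table lists 43354 identifiers in all.

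The study sequenced RNA from buds of fertile plants and of sterile plants of the GMS line AB01, a line whose male sterility is inherited through multiple alleles. There were 3 fertile and 3 sterile libraries, and the series design calls them biological replicates. Genotype was the labelled difference between the groups, and all plants were grown in a greenhouse from vernalised seed. The sources used here do not give the bud stage, the age of the plants or how many plants went into a library. No marker gene was matched to an identifier, so the labelled bud tissue was not checked against markers.

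A flower bud holds sepals, petals, carpels and anthers together. Within the anther, the tapetum feeds the developing pollen and supplies material for its wall, and male sterile plants form no functional pollen. Genes that are higher in such buds can belong to any of the organs that remain, and in bulk tissue more cells of a type and more RNA per cell cannot be told apart. The Brassica rapa genome underwent an ancient triplication, so many genes have close copies, and reads may be divided among them.

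Library totals ran from 27637426 to 35564895 counts. The RefSeq gene table used for names, of the assembly CAAS_Brap_v3.01, matched 1 of all identifiers and 0 of the 92 raised genes. They are therefore given by identifier, with no name, role or sequence.

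Few abundant genes of sterile buds stood this far above the fertile level. Of the 4971 Bra genes at 50 raw CPM or more in sterile buds, the 92 raised genes made up 1.85%, and 16 genes (0.322%) had a ratio of 8 or more. A ratio below 0.8 was found for 181 genes (3.64%), one from 0.8 to its inverse for 2137 (43%), and one between that and 2.5 for 2545 (51.2%). The 92 genes thus formed most of the upper tail of a distribution whose median ratio was 1.27.

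**Figure D1:**
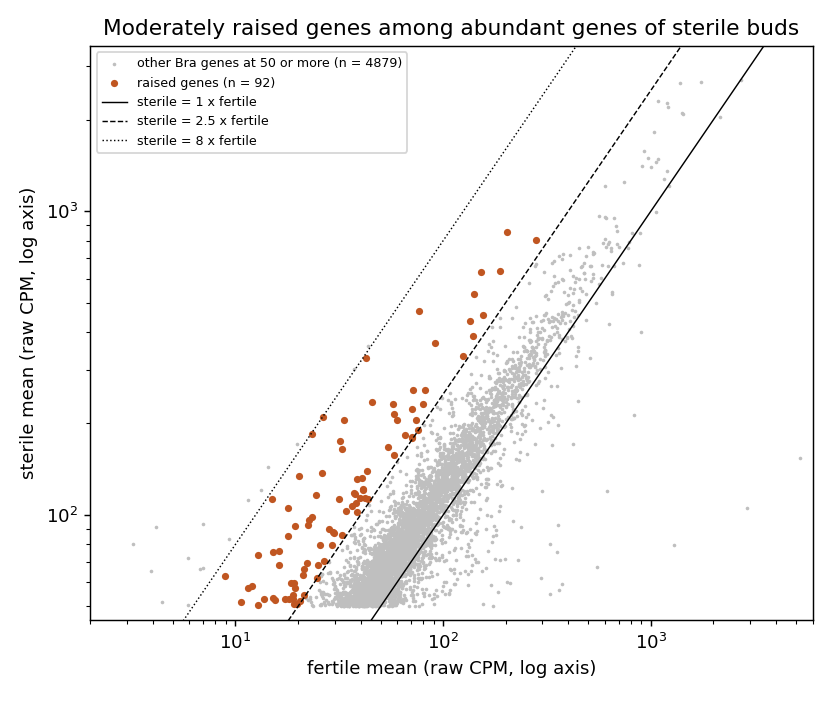
Mean level in sterile buds (vertical axis, raw CPM, log scale) against mean level in fertile buds (horizontal axis, raw CPM, log scale) of the 4971 Bra genes at 50 raw CPM or more in sterile buds; lines mark ratios of 1, 2.5 and 8. The 92 raised genes (orange) lie between the lines for 2.5 and 8, above the main cloud of genes, whose median ratio was 1.27.

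Together the 92 genes took a small but steady part of the RNA counted. Their share of all counts was 0.426%, 0.439% and 0.439% in fertile libraries 1 to 3 and 1.52%, 1.54% and 1.55% in sterile libraries 1 to 3. The means were 0.435% ± 0.0075 and 1.54% ± 0.0179 (SD, n = 3 each). The share varied little between libraries of a group, and the groups were set apart by the selection.

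Ratios crowded towards the lower bound. The ratio was from 2.5 to below 3 in 35 genes, from 3 to below 4 in 27, from 4 to below 5 in 16 and from 5 to below 8 in 14, with a median of 3.19. By level, 40 genes had a sterile mean from 50 to below 100 raw CPM, 29 from 100 to below 200, 18 from 200 to below 500 and 5 above that. The median ratio was 3.14, 3.10, 3.50 and 3.80 in these classes of rising level. The 5 most abundant genes reached a ratio of at most 4.19, while each of the other level classes held ratios above 7. A maximum over 5 genes is not comparable with maxima over 18 to 40 genes, so no limit on the ratio is read from it.

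The bounds cut through a continuum. Just inside the lower ratio bound stood Bra003163, with a ratio of 2.51 (75.96 and 190.4 raw CPM in fertile and sterile buds), and Bra038876, also at 2.51 (24.6 and 61.8). Just outside it were Bra030768 at 2.49 (60.03 and 149.7) and Bra032622 at 2.49 (28.1 and 69.9). At the upper bound Bra013863 (7.97) and Bra011761 (7.94) were inside, and Bra038803 (8.14, with a sterile mean of 303.3 raw CPM) and Bra031798 (8.30, with 359.8) were outside. At the floor Bra018695 (50.5 raw CPM) and Bra015764 (50.9) were inside, and Bra014417 (49.7, ratio 2.56) and Bra030815 (49.5, ratio 3.56) were outside.

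In 92 of the 92 genes every sterile library was above every fertile library in raw CPM. Across all 33150 genes tested that separation was found in 59.5%, and no statement about the class is read from it. In 91 of the 92 the lowest sterile library was at least 2 times the highest fertile one, against 5.87% of all genes tested. The exception was Bra013088 (222 nt), where fertile libraries stood at 21.8, 24.8 and 28.7 raw CPM and sterile ones at 56.8, 71.1 and 78.1. Its highest fertile and lowest sterile libraries were 1.98 times apart.

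**Figure D2:**
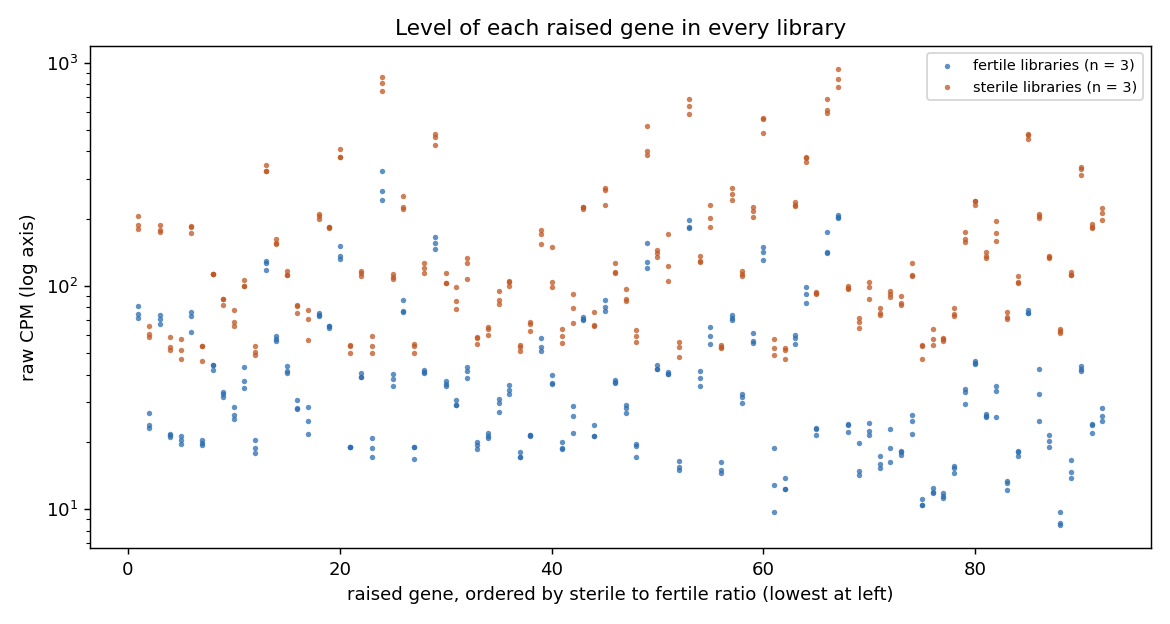
Raw CPM (vertical axis, log scale) of each of the 92 raised genes in the 3 fertile (blue) and 3 sterile (orange) libraries, with genes ordered along the horizontal axis by sterile to fertile ratio from 2.51 to 7.97. In all 92 genes the orange points lie above the blue points, as the choice of genes made nearly certain.

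The edgeR quasi-likelihood test on all genes, with libraries scaled by TMM factors and p-values adjusted by Benjamini-Hochberg over 33150 genes, called all 92 higher at an adjusted p under 0.05, a threshold that 29.2% of genes tested passed in that direction. All 92 also had a fitted change of at least 2-fold, against 6.02% of genes tested. With library size alone 59.1% of genes tested passed as higher and 9.84% as at least 2-fold higher, and with upper-quartile factors 48.5% and 8.03%. With TMM scaling the median log2 fold change of the 92 genes was 1.37, from 1.02 to 2.69. That of all genes tested was 0.00. With scaling to library size alone, on which the rule rests, the medians were 1.67 and 0.31. The ratios of raw CPM therefore include the shift of 0.31 seen in the median gene, and with TMM scaling 55 of the 92 still had a ratio of at least 2.5. The direction was the same for all 92 with TMM, library-size, upper-quartile and DESeq2 scaling. In the deposited RPKM, which are counts divided by model length and library total, limma called all 92 higher, and 61.1% of the 30204 genes tested there.

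The most abundant of the raised genes was Bra008025. It stood at 203.4, 201.3 and 206.9 raw CPM in fertile libraries and at 845.6, 780.7 and 938.0 in sterile libraries, a ratio of 4.19. The fertile libraries lay close together and the sterile ones spread more widely, with a coefficient of variation (CV, the SD as a percentage of the mean) of 1.39% and 9.25%. Bra032758 followed with 267.0, 328.0 and 242.8 raw CPM in fertile buds and 860.2, 809.9 and 749.4 in sterile buds. Here the fertile libraries were the more variable (CV 15.7% against 6.88%), and the ratio was 2.89.

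Next came Bra027049, which measured 183.4, 181.8 and 197.6 raw CPM in fertile libraries and 585.2, 683.6 and 640.6 in sterile ones. Bra017147 had 140.3, 174.3 and 141.3 in fertile libraries and 687.4, 614.9 and 596.1 in sterile ones. Its coding length of 2685 nt was among the longest of the class. Bra019734 reached 481.5, 556.3 and 562.5 raw CPM in sterile buds from 130.7, 141.4 and 149.5 in fertile buds. The groups overlapped in none of these genes, which the choice of genes made nearly certain. Every sterile library was also above every fertile one in 59.5% of all genes tested. The rest of the 10 most abundant were Bra039707, Bra034793, Bra029135, Bra010535 and Bra033750, with sterile means from 369.1 ± 8.99 to 468.9 ± 12.7 raw CPM (SD, n = 3). These 10 genes held 36.3% of the summed sterile level of the class.

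Per length, the order of the genes changed. Bra029135, with a coding length of 255 nt, was highest in deposited RPKM, at 469.5, 498.3 and 610.5 in fertile libraries and 1509, 1574 and 2031 in sterile libraries. Library 3 was the highest of its group in both. Bra008025 (633 nt) was next, with a sterile mean of 1350 ± 125 RPKM, followed by Bra033750 (354 nt) with 1043 ± 25.4 RPKM (SD, n = 3 each). Bra029135 was above Bra008025 in every library of each group, by a narrow margin between its lowest sterile library (1509) and the highest of Bra008025 (1482). Bra028294 (288 nt) reached 807.9 ± 60.7, Bra027049 (963 nt) 660.9 ± 51.3 and Bra032758 (1443 nt) 558.9 ± 38.4 RPKM (SD, n = 3 each). Of the 10 genes highest in raw CPM, 7 were also among the 10 highest in RPKM, and 5 of the 10 highest in RPKM had a coding length under 600 nt. Over the class the median sterile mean was 108.2 RPKM, from 22.6 to 1705.

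The genes with the largest ratios were mostly others. Of the 10 most abundant, 1 was also among the 10 with the largest ratios. Unrelated lists of 10 out of 92 genes would share about as few, so no relation of level and ratio is read from this. Bra013863 went from 26.2, 24.8 and 28.3 raw CPM in fertile libraries to 223.3, 196.8 and 211.7 in sterile ones, the largest ratio of the class at 7.97. Bra011761 followed with 23.7, 24.1 and 22.0 raw CPM in fertile buds against 181.0, 189.1 and 183.8 in sterile buds. Both had a log2 fold change of 2.69 with TMM scaling, and their libraries lay close together within each group.

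Bra029933 had 42.6, 43.6 and 41.6 raw CPM in fertile and 332.7, 312.2 and 341.1 in sterile buds, a ratio of 7.72 at a higher level than the genes before it. Bra028568 measured 16.6, 14.7 and 13.7 raw CPM in fertile and 115.8, 111.7 and 111.7 in sterile buds, a ratio of 7.53. Bra010038 started lowest of all 92 genes, at 8.61, 9.66 and 8.44 raw CPM in fertile libraries, and stood at 64.1, 61.5 and 62.6 in sterile ones. The ratio was 6.68 for Bra040152, 6.15 for Bra020920, 6.14 for Bra039707, 5.92 for Bra029043 and 5.73 for Bra039920. Bra039707 combined both features, with 77.9, 75.6 and 75.7 raw CPM in fertile libraries and 455.0, 471.8 and 480.0 in sterile libraries.

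Spread between libraries of a group was not used to choose the genes. The median CV was 4.93% over the fertile and 4.99% over the sterile libraries. The even genes are the 2137 Bra genes at 50 raw CPM or more in sterile buds with a ratio from 0.8 to its inverse. Their median CVs were 3.41% and 4.23%. With TMM scaling their log2 fold changes ran from -0.63 to 0.02 (median -0.15), so they are even in raw CPM only. Counting error alone gave a median CV of 3.28% for the raised genes in fertile buds, where they are less abundant, and 1.65% in sterile buds, against 2.08% and 1.94% for the even genes. The CV was more than 3 times counting error in 21 raised genes (22.8%) in fertile buds and 46 (50%) in sterile buds, and in 18.4% and 33.6% of the even genes. A CV over 10% was found for 12 raised genes (13%) in fertile and 10 (10.9%) in sterile buds, against 1.54% and 4.45% of the even genes. Among the 16 genes with a ratio of 8 or more the shares over 10% were 37.5% and 0%, and those over 3 times counting error 6.25% and 43.8%. The mirror class (set out below) holds genes abundant in fertile buds and lower in sterile buds by the same bounds in raw CPM. Its shares were 2.5% and 6.67% over 10%, and 26.7% and 11.7% over 3 times counting error. Of these classes the raised genes had the highest shares in sterile buds but not in fertile buds. Both marks depend on counts, which differed between the classes. Median counting error in fertile and sterile buds was 6.85% and 1.88% for the genes with a ratio of 8 or more. For the mirror class it was 1.98% and 3.67%. The order of the classes by these shares therefore cannot be told apart from their counts. Median CVs in fertile and sterile buds were 7.41% and 4.175% for the genes with a ratio of 8 or more. They were 4.12% and 5.335% for the mirror class. These shares and medians were not tested, since genes are not independent replicates.

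A CV over 10% in both groups was found for 4 genes, out of 18 with such a CV in either: Bra029135, Bra013088, Bra039271 and, named after its values were seen, Bra013463. That is 22.2% of the 18, near the 19.6% of the even genes, where 21 of 107 exceeded 10% in both. Bra030060 had the widest sterile spread, with 104.9, 169.9 and 122.2 raw CPM and a CV of 25.4%, while its fertile libraries stood at 40.2, 41.0 and 40.2. Bra032844 showed a like order, with 98.5, 149.6 and 103.8 raw CPM in sterile libraries and 36.7, 39.9 and 36.3 in fertile ones. In both genes sterile library 2 was the high one.

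Another order of libraries was seen in Bra029135, Bra013088 and Bra039271, whose CV was between 13.9% and 16.7% in each group. Bra029135 had 119.7, 127.1 and 155.7 raw CPM in fertile libraries 1 to 3 and 384.9, 401.4 and 517.9 in sterile libraries 1 to 3. Bra039271 had 21.8, 26.0 and 28.9 in fertile libraries and 68.1, 79.4 and 91.9 in sterile libraries. In all 3 genes library 1 was lowest and library 3 highest in both groups, an order that 11 of the 92 raised genes and 145 of the 2137 even genes had. The numbers do not pair the libraries by any label.

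In fertile buds the widest spread was that of Bra004732, at 12.8, 9.73 and 18.7 raw CPM with a CV of 33%, where counting error gave 4.82%. Its sterile libraries stood at 52.4, 48.8 and 57.5, above all fertile ones. Bra020920 varied from 24.7 to 42.6 raw CPM in fertile buds (CV 26.8%) and from 201.6 to 208.9 in sterile buds (CV 1.77%). Bra035183 and Bra007457 had fertile CVs of 19.2% and 17.4% and sterile CVs of 5.50% and 3.21%. In these 4 genes the ratio rests on a fertile mean known less well than the sterile one.

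At the other end, Bra002139 stood at 113.2, 112.3 and 113.3 raw CPM in sterile libraries, a CV of 0.494%. Bra012184 (0.639%), Bra039113 (1.03%) and Bra008847 (1.23%) came next. All 4 values were below the CV that counting error gives on average for their counts (1.17% to 1.82%), so with 3 libraries these small CVs say no more than that no spread beyond counting was seen.

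**Figure D3:**
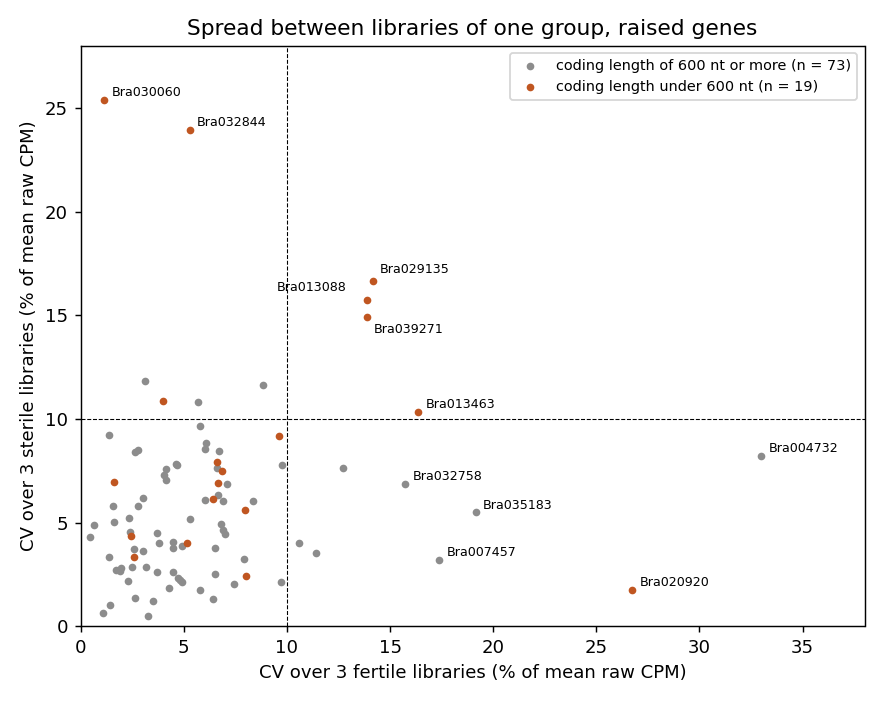
CV over the 3 sterile libraries (vertical axis, % of the mean raw CPM) against CV over the 3 fertile libraries (horizontal axis) for the 92 raised genes, with coding lengths under 600 nt in orange and dashed lines at 10%. Bra030060 and Bra032844 are highest on the sterile axis at 25.4% and 24%, Bra004732 and Bra020920 on the fertile axis at 33% and 26.8%, and 4 genes exceed 10% on both.

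Coding lengths, recovered from the ratio of counts to RPKM, were not used by the rule either. The gene models are not given, and the lengths are called coding because all 92 were multiples of 3. The raised genes had a median coding length of 1068 nt (quartiles 664 and 1441, range 222 to 3177). The median was 1281 nt for the even genes and 1418 nt for the mirror class. The mirror class holds the 120 Bra genes at 50 raw CPM or more in fertile buds, lower in sterile buds by the same bounds. These bounds match in raw CPM only. With TMM scaling the log2 fold changes of the mirror class ran from -3.30 to -1.63 (median -2.26). Those of the raised genes ran from 1.02 to 2.69 (median 1.37). Lengths of 1800 nt or more were found for 12 raised genes (13%), 29.9% of the even genes and 30.8% of the mirror class. Lengths under 600 nt were found for 20.7%, 18.2% and 11.7%. The 16 genes with a ratio of 8 or more were shorter still, with a median of 656 nt, 6.25% at 1800 nt or more and 31.2% under 600 nt, so the shorter lengths were not particular to the 92 genes. The rule sets its floor on counts that were not divided by length, and these differences were not tested.

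The shortest raised genes were Bra013088 (222 nt), Bra029135 (255 nt) and Bra000884 (285 nt), and the longest Bra004058 (3177 nt), Bra031693 (2922 nt) and Bra013656 (2853 nt). Bra004058 measured 21.5, 24.2 and 22.3 raw CPM in fertile and 103.5, 86.9 and 98.6 in sterile buds, a ratio of 4.25. Bra000884 measured 42.5, 42.4 and 44.3 in fertile and 134.7, 140.4 and 143.9 in sterile buds, a ratio of 3.24. The median ratio was 3.12 below 600 nt, 3.37 from 600 to below 1800 nt and 2.94 from 1800 nt. The 19 raised genes under 600 nt had median CVs of 6.65% in fertile and 7.51% in sterile buds, and 8 of them exceeded 10% in either group, as did 10 of the other 73. Among even genes under 600 nt the median CVs were 4.08% and 5.36%, those of even genes from 600 to below 1800 nt 3.04% and 3.64%, and those of even genes of 1800 nt or more 3.63% and 4.82%. A CV over 10% in either group was found for 42.1% of the 19 short raised genes and 12.3% of the 389 short even genes. From 600 to below 1800 nt it was found for 13.1% of the raised and 1.71% of the even genes. Among genes of 1800 nt or more it was found for 16.7% of the raised genes (2 of 12) and 6.25% of the even genes. These shares did not fall steadily with length. The median sterile CV of the raised genes did, at 7.51%, 4.53% and 4.175%, while their median fertile CV was 6.65%, 4.62% and 4.71%.

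**Figure D4:**
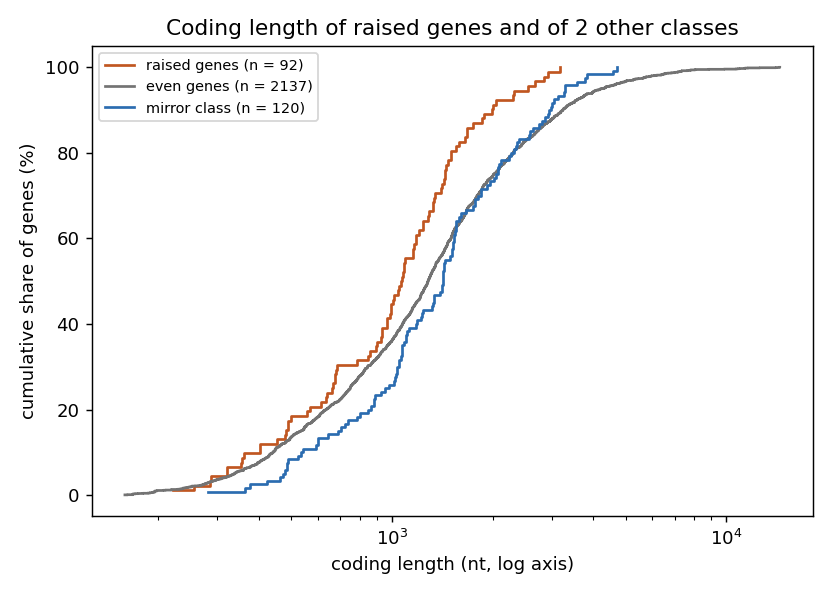
Cumulative share of genes (vertical axis, %) by coding length (horizontal axis, nt, log scale) for the raised genes (n = 92), the even genes (n = 2137) and the mirror class (n = 120). The curve of the raised genes ends at 3177 nt and reaches its middle at 1068 nt, left of the even genes (1281 nt) and the mirror class (1418 nt).

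Identifier numbers were also outside the rule. They are taken here as numbers alone, since no position was used. Among the 92 genes, 4 had another raised gene at the next number, and no more were found up to 5 numbers apart. In the mirror class of 120 genes 0 had another of its class at the next number, and in the larger class of 2137 even genes 252 (11.8%) did. Such counts grow with the size of a class, and 4 genes are too few to read anything from. In the first pair, Bra004182 (1329 nt) stood at 73.2, 61.9 and 76.1 raw CPM in fertile and 183.8, 184.3 and 171.5 in sterile buds, a ratio of 2.56. Bra004183 (1062 nt) stood at 10.4, 10.4 and 11.1 in fertile and 53.7, 47.1 and 54.0 in sterile buds, a ratio of 4.86. The partners thus differed in level, ratio and length. Of the genes on either side, Bra004181 had 0 counts in every library, and Bra004184 had 0.724, 0.425 and 0.478 raw CPM in fertile and 0.439, 0.186 and 0.387 in sterile buds, a ratio of 0.622 with overlapping groups.

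The second pair was more alike in length and sterile level. Bra033282 (1449 nt) had 16.7, 18.9 and 18.9 raw CPM in fertile and 50.01, 55.02 and 53.8 in sterile buds. Bra033283 (1590 nt) had 11.2, 11.5 and 11.8 in fertile and 57.5, 56.5 and 58.1 in sterile buds. The ratios were 2.91 and 4.998. The genes on either side, Bra033281 (621 nt) and Bra033284 (1581 nt), had ratios of 1.55 and 1.33.

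The numbers next to the raised genes included 151 tested genes that were not raised genes themselves. Of these, 16 (10.6%) were at least 2-fold higher in sterile buds at an edgeR adjusted p under 0.05, and 19 (12.6%) at least 2-fold lower. Among all 31084 tested Bra genes outside the class the shares were 5.7% and 14%. The share of higher neighbours was thus above the background and that of lower ones near it, and neither difference was tested. Most of the 16 were rare, with 13 of them below 10 raw CPM in sterile buds.

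The 3 neighbours above that level were named after their values were seen. Bra015733 (408 nt) and Bra015735 (942 nt) flank the raised gene Bra015734 (1854 nt). Bra015734 stood at 73.7, 75.7 and 72.9 raw CPM in fertile and 210.5, 204.5 and 198.9 in sterile buds. Bra015733 stood at 12.6, 13.98 and 12.8 in fertile and 41.9, 40.9 and 39.4 in sterile buds, which gave an edgeR adjusted p of 2.6e-13 at a log2 fold change of 1.33 ± 0.06 (SE). Bra015735 stood at 8.32, 8.11 and 9.11 in fertile and 21.1, 21.1 and 21.7 in sterile buds, which gave an edgeR adjusted p of 9.1e-11 at a log2 fold change of 1.01 ± 0.07 (SE). The ratios of raw CPM in number order were 3.105, 2.762 and 2.502.

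Bra008406 (1347 nt) precedes the raised gene Bra008407 (1287 nt). Bra008406 stood at 5.57, 6.05 and 5.51 raw CPM in fertile and 21.2, 22.0 and 21.6 in sterile buds, which gave an edgeR adjusted p of 9.9e-14 at a log2 fold change of 1.61 ± 0.07 (SE). Bra008407 stood at 22.2, 24.0 and 23.9 in fertile and 99.8, 96.2 and 98.2 in sterile buds. Their raw CPM ratios were 3.78 and 4.20, at levels several times apart. Whether neighbours share reads or overlap was not tested, as no sequence or position was used.

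**Figure D5:**
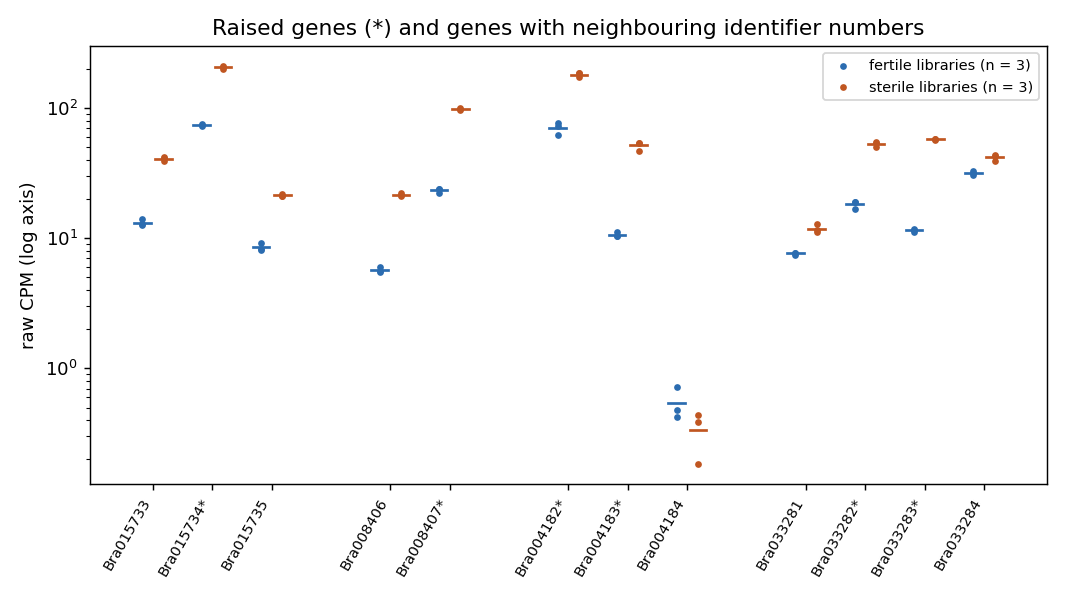
Raw CPM (vertical axis, log scale) of raised genes (marked with an asterisk) and genes with neighbouring identifier numbers, with points for the 3 fertile (blue) and 3 sterile (orange) libraries and bars for group means. The groups overlap in Bra004184 (ratio 0.622), and in the other genes shown, several of them picked as raised, the sterile points lie above the fertile points, with ratios from 1.33 for Bra033284 to 4.998 for Bra033283.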

How the data were processed

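Both tables of the whole series were deposited by the authors and 12 columns were used, each matched to its sample by the title. One holds unscaled counts of reads for each gene, per the file headers. The other holds RPKM, per the file headers, scaled by the authors to gene model length and counted reads. Per the submitters' processing notes, TopHat2 2.0.9 and Bowtie2 2.0.6 were among the tools. The read counter, its strand setting, the build and the gene models are not given in the sources used, so reads of overlapping genes or near-identical copies cannot be told apart.

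Members and lists were chosen with earlier results of these data known. Raw CPM is the count divided by the column sum, times 1000000. Named genes are those highest or lowest within the class in level, ratio, RPKM, CV or length, those next to another by number and those at the bounds. Fixed lists of named genes and tissue markers were not applied, since no identifier is named. Coding length is raw CPM times 1000 over RPKM where counts exceed 20.

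Fits used R 4.3.3, edgeR 4.0.16 (filterByExpr, TMM, glmQLFTest, no block), DESeq2 1.42.0 and limma 3.58.1 with trend on log2(RPKM + 1), for genes at RPKM of 1 or more in 3 libraries. All 92 genes passed both filters. The SE is the log2 fold change over the square root of F. The edgeR and limma steps were run on simulated counts, limma on their CPM and not on RPKM. Few genes were changed there, in random directions, so the run does not cover the shift between scalings seen here. At these depths 3 counts are 0.0844 to 0.109 raw CPM; molecular identifiers are not mentioned, so counting errors cover counting only. No label says that plants were separate beyond the design text. The p-values therefore set the difference between groups against the spread between these libraries only. Deviations of libraries with the same number had correlations of 0.021, -0.037 and 0.097, so numbers were not taken as pairs.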

Additional observations from a re-analysis of the deposited data

How the results depend on the processing

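The number of genes by the rule was 57 with TMM-scaled CPM, of which 50 are among the 92, and 57 with a lower bound of 3. It was 199 with a sterile floor of 25 raw CPM, 52 with a floor of 100 and 211 with a lower bound of 2; 64 genes met the bounds in every library and every ratio. Without 1 library it was 90 to 98, with 86 to 90 of them among the 92. All 92 stayed higher past the threshold under every edgeR, DESeq2 and limma alternative. Of these, 88 to 92 stayed at least 2-fold higher when a library was left out. Choosing the genes from these same libraries made both nearly certain, so neither is evidence of stability. The class had a median log2 fold change of 1.67 with library size alone, 1.56 with upper-quartile factors and 1.33 to 1.41 without 1 library. Their share of counts was 0.447% and 1.57% of Bra counts in fertile and sterile buds, and 0.433% to 0.439% and 1.53% to 1.55% without 1 library. Over all genes, library size alone gave 19608 higher, 6854 lower and 3263 at least 2-fold higher, and upper-quartile factors gave 16076 higher. With TMM scaling and all libraries, 9685 genes were higher, 11027 lower and 1994 at least 2-fold higher. With TMM scaling and without 1 library, these counts were 8715 to 9294, 10431 to 10870 and 2028 to 2144. With the replicate number as a block, 9958 genes were higher, 11254 lower and 1999 at least 2-fold higher, and all 92 raised genes were called; 2 of 6 libraries correlated best with their own number. For 44 named genes, all 484 values under edgeR and DESeq2 alternatives kept direction and call, which the choice of genes also made nearly certain. The cause of these differences was not tested. Depth limits the fertile means, where counting error alone reached a CV of 6.08%.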
